A study of Bos taurus with 12 samples.

Results

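The 10 genes described here encode the enzymes that build fatty acids from acetyl-CoA in the cytosol, and regulators of those enzymes. They were chosen by name from general knowledge of de novo lipogenesis, with earlier results of these data known. They are 10 of the 30336 gene IDs in the count files. ACLY, ACSS2, ACACA, ACACB, FASN, ELOVL6 and ME1 encode enzymes, and SREBF1, MLXIPL and THRSP encode regulators. Liver RNA was sequenced from Holstein heifer calves at 4 d of age, and the question was whether the diet of the dam in late gestation altered hepatic transcripts of the calf. Dams of the CON calves ate a basal diet with no methionine added, and dams of the MET calves the same diet plus ethyl cellulose rumen-protected methionine over the last 28 d of gestation. There were 6 libraries per diet, and calves of both groups were managed alike after birth.

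In the cytosol, citrate or acetate is turned into acetyl-CoA, acetyl-CoA carboxylase makes malonyl-CoA from it, and fatty acid synthase joins these units into palmitate at the cost of NADPH. Insulin acts on the pathway largely through the transcription factor SREBP1, and glucose through ChREBP. In ruminants adipose tissue is the main site of the pathway, the liver makes little fat, and acetate is a more important carbon source than glucose. The paper states that newborn calves lack a functional rumen, and the carbon source used in these livers was not measured.

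The depth was between 8277789 and 10397604 counted reads per library, and 3 reads corresponded to between 0.289 and 0.362 counts per 1e6 counted reads (CPM). Such limits take account of counting error alone, because the reads carry no molecular identifiers. The libraries of CON 1 and CON 4 were nearly the same up to sampling noise (chi-square per gene of 1.31), as were those of MET 1 and MET 3 (1.23), whereas the other 64 pairs of libraries gave 23.2 to 122. Each near-identical pair was therefore summed and counted as 1 sample, named CON 1+4 and MET 1+3, which left 5 samples per diet. MET 5 stood farthest from its group, with a median chi-square per gene of 103 against the other MET libraries. All libraries were run on 1 lane, but the first index was one sequence in all CON libraries and another in all MET libraries, and these factors cannot be told apart.

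The labelled tissue was checked against its markers. All 10 hepatocyte markers were abundant, from PCK1 at 166 RPKM (CPM per kilobase of exons) to ALB at 24754 RPKM. The adipocyte markers ADIPOQ and LEP had 0 reads in every library, and the other 6 adipocyte markers were at 0.14 to 2.15 RPKM. The skeletal muscle markers ACTA1, MYH2, CKM and MYL1 also had 0 reads, while MYH1, MYH7 and TNNT3 had 1, 3 and 4 reads over all libraries. In whole tissue, fewer cells of a type and less RNA per cell cannot be told apart.

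Of the 10 genes, 9 passed the filter on low counts and were compared between the diets, and ACACB did not. At a false discovery rate (FDR) of 0.10, 0 of these 9 were differentially expressed over the 10 samples by edgeR's quasi-likelihood test, as were 0 of all 13242 genes tested (0%). At an unadjusted p of 0.05 there were 2 of the 9, ACSS2 and SREBF1, beside 2165 of all genes tested (16.3%). DESeq2 over the same samples called 639 of all genes (4.83%, or 5.71% of the 11187 to which it gave an adjusted p) and 0 of the 8 genes of the set with an adjusted p, as ME1 had none. Limma voom called 0 of both. When the 12 libraries were taken as separate animals, edgeR called 583 of 13212 genes (4.41%) but again 0 of the 9, with 2 of the 9 and 20.5% of all genes at an unadjusted p of 0.05. DESeq2 over the 12 libraries, chosen after seeing the data, called SREBF1 and ACSS2, beside 1314 of all genes (9.95%), but this fit counts each near-identical pair as different animals. Of the 9 genes, 6 had a lower fitted level in MET, with a median log2 fold change of -0.30 against -0.0028 over all genes tested, of which 50.5% were lower. ME1 was among those 6 at -0.01 and turned positive when scaled by library size alone. In none of the 10 genes, with the untested ACACB counted, were the MET and CON values separate. They were in 491 of the genes tested (3.71%), so that 0 of 10 is near the share of all genes. These values depended on single samples. The median log2 fold change of the 9 genes was -0.06 without CON 2, -0.18 without CON 3 and -0.60 without MET 2, and it was -0.19 when the trend on gene length was removed. Without MET 1+3, edgeR called 39 of all genes at an FDR of 0.10. Of the 9 genes, the number at an unadjusted p of 0.05 was 5 without MET 2, 3 without CON 5, 1 without CON 2, MET 1+3, MET 4 or MET 6, and 0 without CON 3 or without MET 5. In these 8 fits the share of all genes at that level was 12.5% (without CON 3) to 16.7% (without MET 1+3), and it was 14.6% without MET 2 and 14.5% without CON 5.

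**Figure D1:**
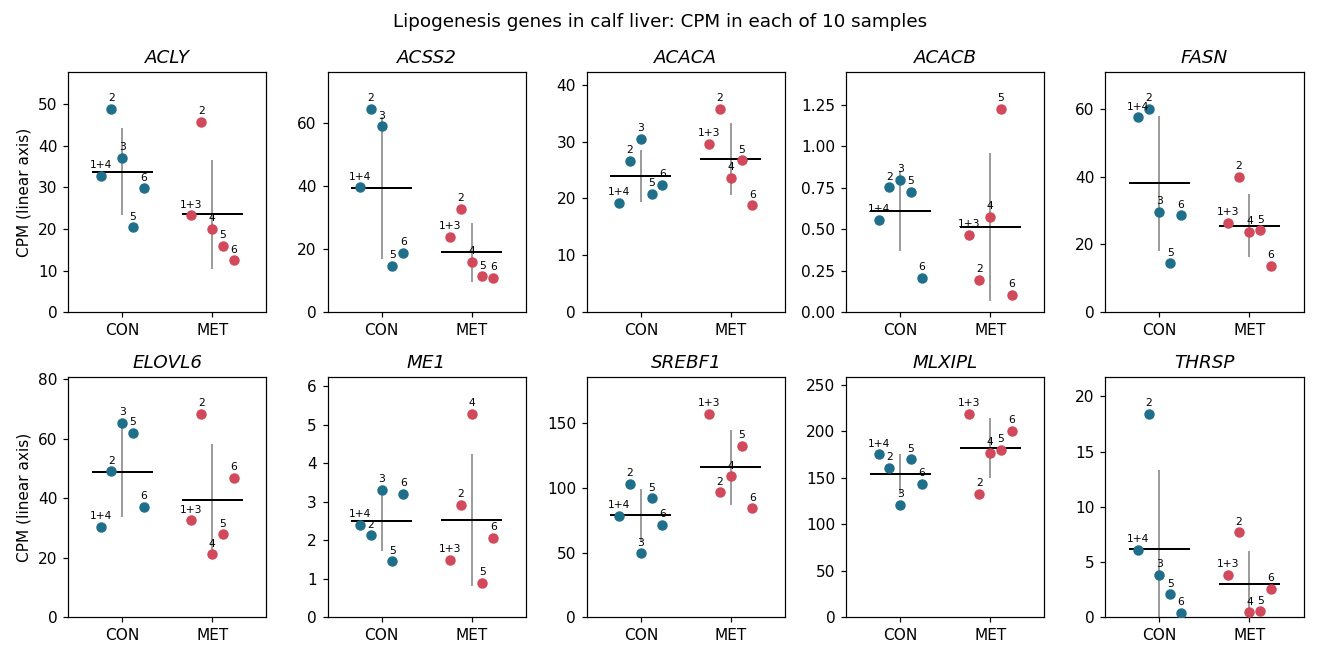
Each panel plots CPM on a linear axis starting at 0 for 1 of the 10 genes, with a point per sample labelled by replicate (1+4 and 1+3 are the summed pairs), a horizontal line at the mean of the diet and a grey line for the SD over 5 samples, which stops at 0. The diets overlap in every panel, SREBF1 has 3 MET samples above all CON samples, and ACSS2 has 3 CON samples above all MET samples.

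ACSS2 and ACLY supply the cytosolic acetyl-CoA from which the chain is built. ACSS2, acetyl-CoA synthetase, activates acetate. Its level was 39.6 CPM in CON 1+4, 64.6 in CON 2, 58.9 in CON 3, 14.8 in CON 5 and 18.8 in CON 6, and 23.9 in MET 1+3, 32.8 in MET 2, 16.0 in MET 4, 11.4 in MET 5 and 10.9 in MET 6. The CON samples thus fell into a high set of 3, above all MET samples, and 2 low ones inside the range of MET. The mean was 39.3 ± 22.6 CPM in CON and 19.0 ± 9.32 in MET (SD, n = 5 samples each). The log2 fold change of MET over CON was -1.04 (SE 0.43), with an unadjusted p of 0.0315 and an adjusted p of 0.267 by edgeR's quasi-likelihood test, so that the difference did not pass the threshold. The exact two-sided permutation test over all arrangements of the samples gave p = 0.111. With 1 sample left out, the log2 fold change of ACSS2 was -1.32 to -0.79. Its unadjusted p by edgeR was at most 0.05 in 5 of these 10 fits.

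ACLY, ATP citrate lyase, splits citrate that has left the mitochondria. It was at 32.7 CPM in CON 1+4, 48.9 in CON 2, 37.0 in CON 3, 20.4 in CON 5 and 29.7 in CON 6, and at 23.2 in MET 1+3, 45.7 in MET 2, 19.98 in MET 4, 16.0 in MET 5 and 12.4 in MET 6. MET 2 was the second highest of all samples, while 3 MET samples were below every CON sample. The log2 fold change was -0.52 (SE 0.32), with an edgeR adjusted p of 0.447 and an exact permutation p of 0.135. Without MET 2 it was -0.90 with an edgeR adjusted p of 0.210. ACSS2 transcripts exceeded ACLY transcripts per length in most samples, with a mean ACSS2:ACLY ratio of RPKM of 1.62 ± 0.60 in CON and 1.22 ± 0.19 in MET (SD, n = 5 samples each).

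ACACA and ACACB encode the acetyl-CoA carboxylases, of which the cytosolic enzyme from ACACA makes the malonyl-CoA used for synthesis, and the enzyme from ACACB sits at the mitochondrion, where malonyl-CoA restrains fatty acid import. ACACA was at 19.2 CPM in CON 1+4, 26.6 in CON 2, 30.4 in CON 3, 20.8 in CON 5 and 22.3 in CON 6, and at 29.6 in MET 1+3, 35.8 in MET 2, 23.6 in MET 4, 26.7 in MET 5 and 18.8 in MET 6. The highest and the lowest sample were both from MET. MET over CON gave a log2 fold change of 0.18 (SE 0.18), with an edgeR adjusted p of 0.658 and an exact permutation p of 0.437. It was 0.06 without MET 2, 0.11 without CON 1+4 and 0.28 without CON 3 or MET 6, and 0.32 with the length trend removed.

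ACACB was close to the limit of detection, with 1 to 11 reads per library and 61 reads over all 12. It was at 0.56 CPM in CON 1+4, 0.75 in CON 2, 0.80 in CON 3, 0.73 in CON 5 and 0.21 in CON 6, and at 0.47 in MET 1+3, 0.19 in MET 2, 0.57 in MET 4, 1.23 in MET 5 and 0.10 in MET 6. CON 6, MET 2 and MET 6 had fewer than 3 reads. The exact permutation p was 0.508, and the alternative fit of every gene with a read gave a log2 fold change of -0.25 with an edgeR adjusted p of 0.877. How large a diet difference these counts could show was not tested. Per length, ACACA exceeded ACACB in all 10 samples, at a mean of 2.57 against 0.0520 RPKM.

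FASN, the fatty acid synthase, assembles palmitate, and ELOVL6 extends it to stearate. FASN was at 57.5 CPM in CON 1+4, 60.0 in CON 2, 29.5 in CON 3, 14.4 in CON 5 and 28.6 in CON 6, and at 26.4 in MET 1+3, 39.9 in MET 2, 23.8 in MET 4, 24.1 in MET 5 and 13.6 in MET 6. CON 1+4 and CON 2 were above all MET samples, and CON 5 was next to the lowest, MET 6. FASN had a log2 fold change of -0.57 (SE 0.36), with an edgeR adjusted p of 0.454 and an exact permutation p of 0.341. It was -0.36 without CON 2, -0.37 without CON 1+4 and -0.79 without MET 2, with edgeR adjusted p of 0.659, 0.672 and 0.354.

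ELOVL6 was at 30.4 CPM in CON 1+4, 49.0 in CON 2, 65.3 in CON 3, 61.9 in CON 5 and 37.2 in CON 6, and at 32.6 in MET 1+3, 68.4 in MET 2, 21.2 in MET 4, 27.9 in MET 5 and 47.0 in MET 6. Its order over the CON samples was unlike that of FASN, since CON 1+4 had the lowest and CON 5 the second highest ELOVL6 level of that diet. Its log2 fold change was -0.30 (SE 0.31), with an edgeR adjusted p of 0.656 and an exact permutation p of 0.325. This value was -0.60 without MET 2, -0.15 without MET 4, -0.18 without CON 3 and -0.20 without CON 5 or MET 5, and -0.19 with the length trend removed.

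ME1, the cytosolic malic enzyme, yields NADPH for the synthase. Its level was 2.40 CPM in CON 1+4, 2.13 in CON 2, 3.31 in CON 3, 1.45 in CON 5 and 3.21 in CON 6, and 1.49 in MET 1+3, 2.92 in MET 2, 5.28 in MET 4, 0.89 in MET 5 and 2.06 in MET 6. MET held both extremes, MET 4 with 46 reads and MET 5 with 8. With a log2 fold change of -0.01 (SE 0.41), the difference in ME1 could not be told from 0, with an edgeR adjusted p of 0.997 and an exact permutation p of 0.730.

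SREBF1 encodes SREBP1, the factor that switches on most of the enzymes above once it has been released from the endoplasmic reticulum by cleavage, which was not measured here. It was at 78.6 CPM in CON 1+4, 103 in CON 2, 49.6 in CON 3, 92.0 in CON 5 and 71.6 in CON 6, and at 157 in MET 1+3, 96.7 in MET 2, 109 in MET 4, 132 in MET 5 and 84.3 in MET 6. MET 1+3, MET 4 and MET 5 were above all CON samples, and CON 1+4, CON 3 and CON 6 were below all MET samples. The mean was 79.0 ± 20.5 CPM in CON and 116 ± 29.2 in MET (SD, n = 5 samples each). The log2 fold change was 0.55 (SE 0.21), with an unadjusted p of 0.0231 and an adjusted p of 0.241 by edgeR's quasi-likelihood test. The exact permutation test gave p = 0.0476, where the smallest p possible with 5 samples per diet is 0.00794. Over the 12 libraries the log2 fold change was 0.64 (SE 0.19) and the edgeR adjusted p 0.103, outside the FDR of 0.10. That fit takes each near-identical pair as different animals, and MET 1 and MET 3 had the most SREBF1 reads (1716 and 1651). SREBF1 was thus the one gene of the set whose direction, higher in MET, was opposite to that of ACSS2, ACLY and FASN with an unadjusted p under 0.05. With 1 sample left out, its log2 fold change was 0.42 to 0.67. The unadjusted p by edgeR was at most 0.05 in 7 of these 10 fits. The counts do not separate the transcripts for SREBP1a and SREBP1c.

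Within a sample, the number of SREBF1 transcripts per FASN transcript, as a ratio of RPKM, was 2.83 in CON 1+4, 3.56 in CON 2, 3.48 in CON 3, 13.2 in CON 5 and 5.19 in CON 6, and 12.3 in MET 1+3, 5.02 in MET 2, 9.48 in MET 4, 11.4 in MET 5 and 12.9 in MET 6. The median was 3.56 in CON and 11.4 in MET, but CON 5 had the highest ratio, so that all MET samples were within the range of CON. The ratio of SREBF1 to ACSS2 had medians of 1.49 in CON and 5.13 in MET, and here too the diets overlapped, with 4.68 in CON 5 and 2.22 in MET 2. These ratios were formed after the values had been seen and are given without a test.

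MLXIPL encodes ChREBP, the glucose-responsive factor. It was at 175 CPM in CON 1+4, 161 in CON 2, 121 in CON 3, 170 in CON 5 and 144 in CON 6, and at 219 in MET 1+3, 133 in MET 2, 177 in MET 4, 180.5 in MET 5 and 201 in MET 6. Of the MET samples, 4 were above all CON samples, and MET 2 was the second lowest of the 10. For MLXIPL the log2 fold change was 0.24 (SE 0.15), with an edgeR adjusted p of 0.465 and an exact permutation p of 0.175.

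THRSP, the thyroid hormone responsive protein Spot 14, is a small acidic protein of lipogenic tissues that promotes fatty acid synthesis. It was at 6.14 CPM in CON 1+4, 18.4 in CON 2, 3.88 in CON 3, 2.08 in CON 5 and 0.41 in CON 6, and at 3.83 in MET 1+3, 7.69 in MET 2, 0.46 in MET 4, 0.56 in MET 5 and 2.57 in MET 6. CON 2 and MET 2 were the highest samples, and CON 6, MET 4 and MET 5 had 4 or 5 reads each. The log2 fold change of -0.98 (SE 0.83) had an edgeR adjusted p of 0.582 and rested on CON 2, without which it was -0.06, while without MET 2 it was -1.61. The exact permutation p was 0.50.

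**Figure D2:**
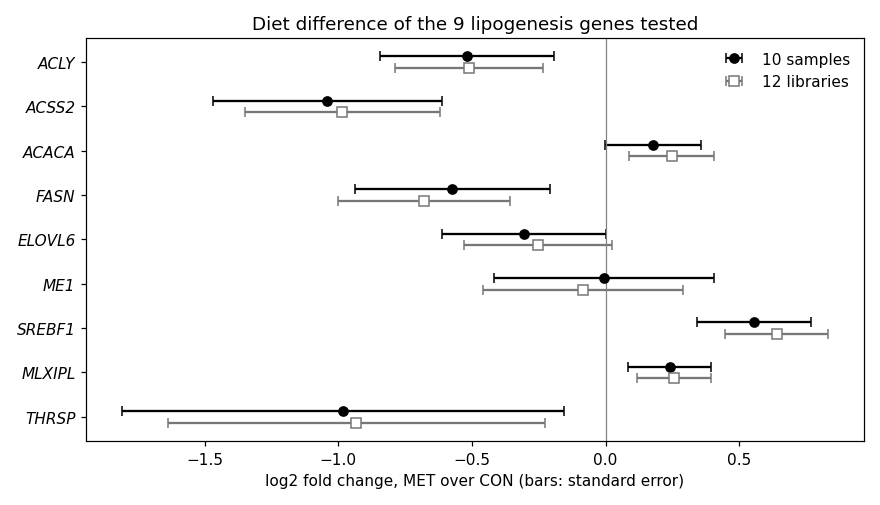
The horizontal axis gives the log2 fold change of MET over CON with its standard error for the 9 genes tested, as filled circles for the 10 samples and open squares for the 12 libraries. ACSS2 (-1.04), THRSP (-0.98), FASN (-0.57) and ACLY (-0.52) lie to the left of 0, SREBF1 (0.55) to the right, and 0 of them passed an FDR of 0.10 in either fit.

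Compared per length over the 10 samples, the regulators MLXIPL and SREBF1 had the highest transcript levels. MLXIPL was at 51.2 ± 9.11 RPKM and SREBF1 at 24.5 ± 7.70 (SD, n = 10), which exceeded the level of 91.1% and 83.1% of the genes tested. ACSS2 (9.74 RPKM), ELOVL6 (7.17) and ACLY (6.46) followed, and these neighbours were not separated, since each exceeded the next in 6 of 10 samples. FASN was at 3.85 RPKM, below ACLY in all 10 samples, and 42.6% of the genes tested were lower. FASN, THRSP (3.31) and ACACA (2.57) were not separated from each other by their spread. FASN exceeded THRSP in 7 of 10 samples, but THRSP exceeded ACACA in only 3, its mean being raised by CON 2 at 13.3 RPKM. ACACA exceeded ME1 (0.803) in all 10 samples.

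The spread among calves of 1 diet differed strongly between the genes. The within-diet SD of log2 CPM was 1.71 for THRSP, larger than in 99.5% of the genes tested, 0.83 for ACSS2 (95.6%), 0.71 for FASN (93.3%) and 0.59 for ACLY (89.0%). ME1, at 0.70 (93.0%), had few reads, so that counting error adds to its spread. By contrast MLXIPL, at 0.25, was less variable than most genes, with 38.0% of the genes tested below it, and SREBF1 (0.38, 68.8%) and ACACA (0.31, 54.7%) lay in between.

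ACLY, ACSS2 and FASN had similar orders over the samples. Over the 10 samples, log2 CPM of ACLY and ACSS2 had Pearson's r = 0.90 (permutation p = 0.00052, 100000 resamples, adjusted p = 0.0234 over the 45 pairs of the 10 genes) and Spearman's rho = 0.94 (permutation p = 0.00017, adjusted p = 0.00765). Leaving out the 2 samples farthest from the median of ACLY gave r = 0.84, and the deviations from the diet means gave r = 0.87. CON 2, CON 3 and MET 2 were at the high end of both genes, and MET 5 and MET 6 at the low end. ACLY with FASN had r = 0.83 (permutation p = 0.00319, adjusted p = 0.0718) and rho = 0.92 (permutation p = 0.00051, adjusted p = 0.00900), with r = 0.66 without 2 samples and 0.81 for deviations. ACSS2 with FASN had r = 0.80 (permutation p = 0.00550, adjusted p = 0.0825) and rho = 0.92 (permutation p = 0.00060, adjusted p = 0.00900), with r = 0.88 without 2 samples and 0.78 for deviations. The adjusted p of r was thus under 0.05 for 1 pair, and that of rho for 3. With ACLY, ACSS2 and FASN in this order, r was 0.63, 0.75 and 0.57 for THRSP, 0.53, 0.43 and 0.33 for ACACA, 0.42, 0.38 and -0.04 for ELOVL6, and 0.36, 0.31 and 0.22 for ME1, all with an adjusted p above 0.10. For deviations from the diet means, ACACA had r = 0.80 with ACLY, 0.71 with ACSS2 and 0.47 with FASN. Differences between correlations were not tested.

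**Figure D3:**
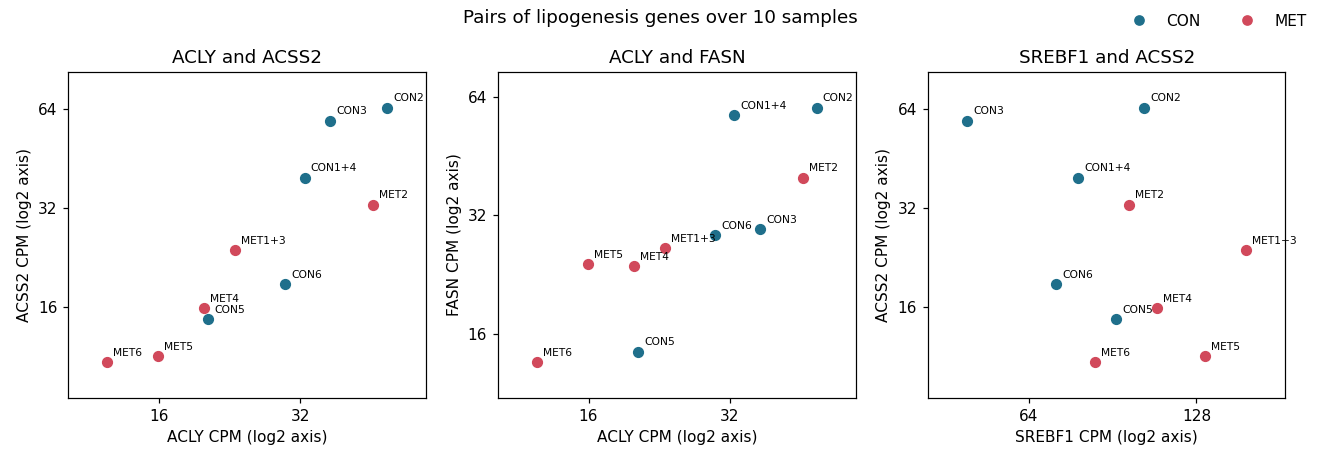
The 3 panels plot CPM on log2 axes for pairs of genes, with 1 point per sample coloured by diet and labelled by replicate. ACLY rises with ACSS2 (r = 0.90) and with FASN (r = 0.83) over both diets, whereas SREBF1 and ACSS2 show no common order (r = -0.38).

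SREBF1 showed no clear relation with these enzymes over the 10 samples. Its r was -0.38 with ACSS2 (permutation p = 0.284, adjusted p = 0.639; rho = -0.22, permutation p = 0.535, adjusted p = 0.752), and -0.06 when the diet means were removed. With FASN r was -0.07 (permutation p = 0.855, adjusted p = 0.962; rho = -0.18, permutation p = 0.631, adjusted p = 0.790), and 0.21 when the diet means were removed. SREBF1 and ACLY had r = -0.31 (permutation p = 0.389, adjusted p = 0.649) and rho = -0.26 (permutation p = 0.468, adjusted p = 0.702). Their r was -0.60 without the 2 samples farthest from the median of ACLY, and 0.01 when the diet means were removed. SREBF1 and MLXIPL had r = 0.72 (permutation p = 0.0195, adjusted p = 0.175) and rho = 0.62 (permutation p = 0.0605, adjusted p = 0.303), with r = 0.20 without the 2 samples farthest from the median of SREBF1, which narrows its range, and 0.62 for deviations. ACLY and MLXIPL had r = -0.68 (permutation p = 0.0333, adjusted p = 0.249) and rho = -0.73 (permutation p = 0.0199, adjusted p = 0.174). Of the 45 values of r, 25 were above 0 and 20 below.

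No single sample was high or low throughout. Among the 9 genes tested, CON 2 had the highest level in 4 (ACLY, ACSS2, FASN and THRSP), and MET 6 the lowest in 4 (ACLY, ACSS2, ACACA and FASN). CON 3 and MET 2 were each among the 3 highest samples in 5 genes, and MET 5 among the 3 lowest in 5.

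In the bovine assembly UMD 3.1.1, 4 of the 10 genes lay on chromosome 19, which carried 6.04% of the genes tested. These were ACACA (GeneID 281590, chr19:13750867-14040123, minus strand), SREBF1 (539361, chr19:35234637-35250672, plus strand), ACLY (511135, chr19:42691368-42735754, minus strand) and FASN (281152, chr19:51384892-51403614, plus strand). ACSS2 (506459) was at chr13:64794700-64841521 on the plus strand, MLXIPL (788534) at chr25:34125689-34144130 on the plus strand and THRSP (515940) at chr29:18084680-18090586 on the minus strand. ACACB (515338) was at chr17:66101179-66217542 on the minus strand, ELOVL6 (533333) at chr6:16376157-16512210 on the plus strand and ME1 (540985) at chr9:23400884-23590196 on the minus strand. ACACA has 60 merged exons over 289257 bases, FASN 42 over 18723, and THRSP 2 over 5907. The gene of a microRNA, MIR33B, lies inside SREBF1 on the same strand and had 18 reads over all libraries.

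Around these 10 genes, 67 further genes in 7 lists were followed, of which 65 passed the filter. At an unadjusted p of 0.05 there were 12 of the 65 (18.5%), 3 higher and 9 lower in MET, against 16.3% of all genes tested, and edgeR called 0 at an FDR of 0.10 over the 10 samples. Of the 12, the list of desaturation, elongation and esterification held 4 lower, and that of SREBP1 and ChREBP control 2 higher and 1 lower. Cytosolic NADPH supply held 2 lower, and malonyl-CoA control and further ChREBP targets 1 lower each. Mitochondrial fatty acid synthesis held 1 higher, and citrate and acetate supply 0. Over the 12 libraries edgeR called 4 (6.15%, against 4.41% of all genes), namely INSIG2, CPT1A, FADS2 and MCAT, and DESeq2 over the 10 samples also called 4, of 64 with an adjusted p, beside 5.71% of all genes with one.

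Among 15 genes that control SREBP1 and ChREBP, 7 had higher and 8 lower fitted levels in MET, with a median log2 fold change of -0.06. INSIG2, which holds the SREBP precursor in the endoplasmic reticulum, was at 30.9 to 33.7 CPM in CON and 19.5 to 26.4 in MET. It was the only one of the 65 genes without overlap of the diets, which was the case in 3.71% of all genes tested. Its log2 fold change was -0.45 (SE 0.11), with adjusted p of 0.174 by edgeR over the 10 samples, 0.0582 over the 12 libraries and 0.0200 by DESeq2 over the 10 samples. NR1H3, the liver X receptor alpha that induces SREBF1, was at 76.7 ± 7.97 CPM in CON and 98.1 ± 16.2 in MET (SD, n = 5 samples each), with a log2 fold change of 0.35 (SE 0.13) and an edgeR adjusted p of 0.237. RXRA, its partner, and INSIG1 had the highest levels per length (59.6 and 52.8 RPKM) and log2 fold changes of 0.12 and -0.17, which both changed sign with 1 sample left out (RXRA -0.01 without MET 6, INSIG1 0.04 without CON 3). USF1, which binds E-boxes of lipogenic promoters and was picked after its values were seen, had a log2 fold change of 0.24 and an unadjusted p of 0.0334 (edgeR adjusted p of 0.271).

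Of the 8 genes that supply citrate and acetate, 5 were higher and 3 lower in MET. PC, the pyruvate carboxylase, had a log2 fold change of 0.52 (SE 0.28) that leaned on MET 4, at 1207 CPM beside 352 to 599 in the other MET samples and 383 to 479 in CON, and was 0.13 without it. SLC25A1, the citrate carrier, was at 123 RPKM with a log2 fold change of -0.01, which lay between -0.10 and 0.12 with 1 sample left out. CS, the citrate synthase, was at 10.4 RPKM with 0.23, or 0.11 without MET 2 and 0.12 without CON 1+4. Among the 7 tested genes of cytosolic NADPH supply and related enzymes, 4 were higher and 3 lower, and ME3 was below the filter. IDH1, the cytosolic isocitrate dehydrogenase, was at 173 ± 33.1 CPM in CON and 118 ± 35.5 in MET (SD, n = 5 samples each), with a log2 fold change of -0.55 (SE 0.22) and an edgeR adjusted p of 0.252. NNT, a mitochondrial transhydrogenase, had a log2 fold change of -0.40 (edgeR adjusted p of 0.279), and TALDO1 of the pentose phosphate pathway 0.29 (0.335).

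Of the 11 genes that govern malonyl-CoA or biotin, 4 were higher and 7 lower in MET. CPT1A, the carnitine palmitoyltransferase that malonyl-CoA inhibits, was at 349 CPM in CON 1+4, 271 in CON 2, 224 in CON 3, 248 in CON 5 and 338 in CON 6, and at 238 in MET 1+3, 189 in MET 2, 222 in MET 4, 170.3 in MET 5 and 162 in MET 6. The groups overlapped through CON 3 and MET 1+3. The log2 fold change was -0.54 (SE 0.16), with adjusted p of 0.183 by edgeR over the 10 samples, 0.0846 over the 12 libraries and 0.0493 by DESeq2 over the 10 samples. The subunits of AMP-activated protein kinase named by the rule, PRKAG1 and PRKAA2, had log2 fold changes of 0.22 and -0.35, with edgeR adjusted p of 0.434 and 0.472. PRKAG1 was at 0.33 without CON 5.

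The 11 genes that desaturate, elongate or esterify fatty acids had 9 lower and 2 higher fitted levels in MET, with a median log2 fold change of -0.26. FADS2, the delta-6 desaturase, was at 64.8 CPM in CON 1+4, 218 in CON 2, 73.5 in CON 3, 42.6 in CON 5 and 41.1 in CON 6, and at 15.4 in MET 1+3, 44.0 in MET 2, 23.9 in MET 4, 7.48 in MET 5 and 18.8 in MET 6. CON 2 was again highest, and MET 2 alone reached the range of CON. Fitted as a log2 fold change this was -2.0 (SE 0.53), with adjusted p of 0.175 by edgeR over the 10 samples, 0.0635 over the 12 libraries and 0.0384 by DESeq2 over the 10 samples. LPIN1, a phosphatidate phosphatase, had a log2 fold change of -1.73 (SE 0.59) and ELOVL5, an elongase of polyunsaturated fatty acids, -0.78 (SE 0.34), with edgeR adjusted p of 0.206 and 0.292. FADS1, the delta-5 desaturase, picked after its values were seen, had -1.17 (SE 0.52) with an edgeR adjusted p of 0.297, but -0.49 without CON 2, which was at 115 CPM. ACSL1, which activates long-chain fatty acids, had the highest level of the list at 182 RPKM, and a log2 fold change of -0.43 with an edgeR adjusted p of 0.311.

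The mitochondrion has a fatty acid synthesis of its own, which makes the precursor of lipoate. Of its 7 genes, 6 had higher and 1 a lower fitted level in MET, with a median log2 fold change of 0.16. MCAT, which loads malonyl groups on the acyl carrier protein, was at 14.8 CPM in CON 1+4, 15.4 in CON 2, 14.8 in CON 3, 17.6 in CON 5 and 16.6 in CON 6, and at 23.5 in MET 1+3, 17.5 in MET 2, 22.4 in MET 4, 20.8 in MET 5 and 25.1 in MET 6. MET 2 was just below CON 5, and the other 4 MET samples were above all CON samples. MCAT had a log2 fold change of 0.47 (SE 0.12), with adjusted p of 0.174 by edgeR over the 10 samples, 0.0452 over the 12 libraries and 0.0378 by DESeq2 over the 10 samples. CBR4 and HSD17B8, which form 1 reductase of the pathway, had log2 fold changes of -0.37 and 0.18, and NDUFAB1, the acyl carrier protein, 0.11. HSD17B8 was at -0.01 without MET 6 and 0.28 without MET 5, and NDUFAB1 at 0.01 without MET 2 and 0.23 without MET 5. Among 6 tested targets of ChREBP outside the set, 2 were higher and 4 lower in MET, with TXNIP at -0.54 (edgeR adjusted p of 0.286), G6PC at -0.37 (0.610) and KHK at 0.24 (0.724). Single samples moved these values: TXNIP was at -0.34 without CON 3, G6PC at -0.67 without MET 1+3 and -0.18 without MET 6, and KHK, at 801 CPM in MET 6, turned to -0.05 without that sample and was at 0.42 without CON 5. FGF21 was below the filter.

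Markers of other liver cells also differed in level between samples. All 8 macrophage markers had higher fitted levels in MET, with a median log2 fold change of 0.20 and MARCO as the most abundant. Their summed level was 1134, 1434, 1579, 1375 and 1442 CPM in CON 1+4, 2, 3, 5 and 6, and 1559, 1787, 1535, 1332 and 1768 CPM in MET 1+3, 2, 4, 5 and 6. C1QB had a log2 fold change of 0.36, with adjusted p of 0.213 by edgeR over the 10 samples and 0.0855 over the 12 libraries, and 0.0680 by DESeq2 over the 10 samples. The 4 tested cholangiocyte markers were all lower in MET over the 10 samples (median log2 fold change -0.40, EPCAM most abundant). Over the 12 libraries the log2 fold change was 0.0021 for KRT7, -0.20 for KRT19, -0.26 for EPCAM and -0.56 for CFTR. All 5 of the listed markers, with SOX9 below the filter, summed to 51.0, 50.6, 72.2, 62.6 and 77.9 CPM in the CON samples and 67.6, 51.9, 32.1, 30.5 and 62.2 CPM in the MET samples, in the same order. Of the 7 stellate or fibroblast markers 6 were lower (median -0.34, COL3A1 most abundant), with sums of 582, 623, 728, 672 and 882 CPM in CON and 621, 484, 453, 518 and 745 CPM in MET. Among these, CFTR of cholangiocytes (log2 fold change -0.54) and LUM of fibroblasts (-0.69) had edgeR adjusted p of 0.195 and 0.211 over the 10 samples and 0.0889 and 0.0985 over the 12 libraries, and 0.108 and 0.110 by DESeq2 over the 10 samples.

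Of 10 hepatocyte markers 7 were lower in MET (median -0.20), ALB with a log2 fold change of -0.66 and PCK1 with -0.88. Their adjusted p were 0.238 and 0.175 by edgeR over the 10 samples, 0.107 and 0.0570 over the 12 libraries, and 0.0483 and 0.0190 by DESeq2 over the 10 samples. Of 6 endothelial markers 4 were lower (median -0.15). The erythroid markers, of which HBB was by far the most abundant, summed to 8.04, 959, 377, 123 and 362 CPM in CON and 460.0, 61.2, 166, 57.5 and 144 CPM in MET. CON 2 had the most HBB and the most FASN. CON 1+4 had the least HBB (6.20 CPM) and the second highest FASN level, and MET 1+3 the second most HBB (435 CPM) and a middling FASN level. The lymphocyte markers were sparse, with sums over 5 markers of 4.77 to 17.0 CPM, and 3 of the 3 that passed the filter were higher in MET. The part of these cells in the values of the lipogenesis genes was not tested.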

How the data were processed

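The authors trimmed the reads with Trimmomatic 0.33, mapped these with STAR 2.5.3a on assembly UMD 3.1.1 of cattle, and assigned them to RefSeq exons with featureCounts of Subread 1.5.2 in reverse-stranded mode. They deposited raw counts of reads per Entrez gene ID, without normalization. Symbols were taken from a RefSeq table of the later assembly ARS-UCD2.0, used for names only, which matched 25105 of the 30336 IDs and all 10 lipogenesis genes.

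Libraries with a chi-square per gene under 5 were summed. CPM were computed with edgeR 4.0.16 in R 4.3.3 after TMM normalization, and RPKM by dividing CPM by the exonic length in the files. Low counts were removed with filterByExpr of edgeR (minimum count 10, minimum total count 15), and the other genes compared by the quasi-likelihood test with diet alone in the model. All genes tested entered the Benjamini-Hochberg adjustment. A fit over the 12 libraries taken as separate animals, the design of the study, was run as an alternative with this filter, so that its numbers of genes need not equal the published ones. Single values were compared on log2 CPM (prior count 2) by exact two-sided permutation tests over 252 arrangements, or 924 for the 12 libraries. Correlations used 100000 permutations. The labels give the libraries as different calves, but 2 pairs were near-identical.

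The 10 genes and all lists were chosen with earlier results of these data known. From each list the genes named were those with an FDR of at most 0.10 over the 12 libraries, the 2 with the highest RPKM and the 2 with the largest absolute log2 fold change. Of 9 erythroid markers 8 were matched. Alternatives covered normalization (RLE, upper quartile, library size), filter, DESeq2 1.42.0, voom of limma 3.58.1, robust estimation, removal of a trend on gene length (span 0.5), a replicate block and each sample left out. The steps were tested on simulated data. Promoter sequences were not used here.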

Additional observations from a re-analysis of the deposited data

How the results depend on the processing

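Over 24 alternatives to the edgeR test on 10 samples, ACLY, ACSS2, FASN, ELOVL6 and THRSP were lower in MET in all 24, and SREBF1, MLXIPL and ACACA higher in all 24. Adjusted p ranged from 0.0344 to 0.402 for SREBF1 and from 0.0771 to 0.461 for ACSS2, and an FDR of 0.10 was reached only in DESeq2 over the 12 libraries (added after seeing the data), which called 2 of the lipogenesis genes. ME1 changed sign in 11 alternatives: its log2 fold change was 0.044 with the second library of each pair, 0.0082 with library size only, 0.0056 with every gene with a read, 0.0067 with CPM above 0.5 in 2 samples, 0.0018 with DESeq2 and 0.011 with the length trend removed. Leaving out 1 sample gave -0.44 to 0.20 for ME1, with 0.11 without CON 3, 0.10 without CON 6, 0.15 without MET 1+3, 0.20 without MET 5 and 0.05 without MET 6.

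Of all genes, 0 passed an FDR of 0.10 and 0 an FDR of 0.05 by edgeR over 10 samples (2165 at an unadjusted p of 0.05). The 12 libraries gave 583 and 71, DESeq2 639 and 311, and DESeq2 over the 12 libraries 1314 and 712. The cause was not tested for DESeq2, while the 12 libraries count near-identical pairs as separate animals. Leaving out 1 sample gave 0 to 39 genes at an FDR of 0.10, with 39 without MET 1+3, and 1663 to 2234 at an unadjusted p of 0.05. For the lipogenesis genes that number was 0 to 5 with 1 sample left out, 1 with voom and 1 with robust estimation. The share of all genes at that level was 16.1% with voom and 16.1% with robust estimation.

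The replicate block, possible only over the 12 libraries, gave 6 genes at an FDR of 0.10, 1 at 0.05 and 4 lipogenesis genes at an unadjusted p of 0.05, beside 2275 of all genes (17.2%). In expression there was no sign that the replicate numbers pair the libraries, as deviations of same-numbered libraries correlated at -0.19 to 0.15. Weak correlations cannot show that the libraries are unpaired. No CON library correlated best with its own number. However, CON 1 correlated best with MET 3 (0.162), which was near-identical to MET 1 (0.148), so that CON 1 cannot count here. The exact permutation p was at most 0.05 for 1 gene, SREBF1, over the 10 samples (0.0476). Over the 12 libraries SREBF1 was again the only such gene (0.0173), but that test takes near-identical pairs as different animals. No share of all genes is given for the permutation test, so this count cannot be set against a background. By edgeR without adjustment, 16.3% of all genes tested reached 0.05 over the 10 samples and 20.5% over the 12 libraries. Depth limits ACACB, ME1 and the low samples of THRSP.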
